A study of Rattus norvegicus with 10 samples.

Results

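Plekhb1, Pabpc1, Dnajc27 and Rassf8 are rat genes that the deposited table lists with more than 1 isoform, and they were selected on the comparison of siScrt1 with siCtrl described here, for isoforms that appeared to change differently. These 4 genes hold 9 of the 31715 transcripts with values, and they belong to the 5147 of 23918 genes listed with 2 or more transcripts. RNA-seq was performed on FACS-sorted pancreatic β-cells of adult Sprague-Dawley rats, the insulin-producing cells of the islet. In 5 libraries (siScrt1, A to E) the cells had received a pool of 4 siRNAs against Scrt1, and in 5 libraries (siCtrl, 1 to 5) a negative control siRNA. RNA was extracted 48 h after transfection in both groups. The silencing is transient, and neither the labels nor the methods tie a library to 1 animal or to 1 preparation, so that every p-value given here measures the spread between these libraries only.

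Most mammalian genes make several isoforms, transcripts that start at another promoter, keep other exons or end at another polyadenylation site, and that can differ in the protein they encode or in how long the RNA lasts. Short reads taken from a part common to 2 isoforms fit both, and kallisto, the program the authors used, divides such reads between them by a statistical estimate. Scrt1 itself is a zinc finger repressor of the Snail superfamily, which binds DNA at E-boxes, short motifs of the form CANNTG.

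The 4 genes have unrelated roles. Pabpc1 encodes the main cytoplasmic poly(A)-binding protein, which coats the tail of messenger RNAs and links it to the translation initiation machinery. Rassf8 encodes a member of the RASSF family, proteins with a domain that can associate with Ras-like GTPases. Dnajc27 encodes a small GTPase related to the Rab family that carries a J domain, the part through which J-domain proteins engage Hsp70 chaperones. Plekhb1 encodes a small membrane-associated protein with a pleckstrin homology domain.

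RefSeq promoter sequences on the GRCr8 build were at hand for Plekhb1 and Dnajc27 only, so those of Pabpc1 and Rassf8 are not shown. Plekhb1 was the only gene of the 4 with a higher leading isoform in siScrt1, and Dnajc27 the one with the largest fitted fall. Each run is the 250 bases before the annotated start, 5′ to 3′ on the strand of the gene, and capitals mark CANNTG. The Plekhb1 run lies at chr1:164425173-164425422 on the minus strand, and that of Dnajc27 at chr6:32787985-32788234 on the plus strand. The table gives 1 start for each gene and does not say which isoform of the deposited file it belongs to.
Plekhb1: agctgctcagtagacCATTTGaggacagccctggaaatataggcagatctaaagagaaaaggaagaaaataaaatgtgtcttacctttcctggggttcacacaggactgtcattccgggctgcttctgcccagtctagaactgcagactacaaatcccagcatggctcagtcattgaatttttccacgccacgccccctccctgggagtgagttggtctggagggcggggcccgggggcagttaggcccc
Dnajc27: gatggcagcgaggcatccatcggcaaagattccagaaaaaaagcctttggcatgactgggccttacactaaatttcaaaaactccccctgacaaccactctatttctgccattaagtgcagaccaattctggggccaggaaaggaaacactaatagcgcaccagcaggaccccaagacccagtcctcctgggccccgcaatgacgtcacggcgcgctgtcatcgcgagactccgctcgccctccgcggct
The Plekhb1 run held 1 CANNTG, the word CATTTG that begins 235 bases before the start, and the Dnajc27 run held none. CANNTG reads as itself on both strands and was present in 65.5% of 33469 RefSeq promoters cut to the same length. The E-box CAGGTG, searched on both strands and contained in CANNTG, was found in neither run and in 15.9% of all promoters. A match is a description of the letters, and its absence says only that they are not in this window.

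Libraries held 11901342 to 17444034 recovered reads, which are the deposited values divided by what 1 read was worth in each library. The targeted gene Scrt1 (ENSRNOG00000025594) had 8.13 ± 1.58 TPM in siCtrl and 2.14 ± 1.03 TPM in siScrt1 (SD, 5 libraries each), without overlap between the groups. TPM is a transcript abundance relative to length and to the library. The summed TPM of 8 β-cell markers ran from 332464 to 614718 in siCtrl and from 386235 to 539214 in siScrt1, with Ins1 and Ins2 at the top. All 4 α-cell markers were detected, with sums of 205 to 625 TPM in siCtrl and 222 to 506 TPM in siScrt1, and the δ- and PP-cell list summed to 39.96 to 167 and 53.9 to 193 TPM. The acinar, duct, endothelial, mesenchymal and immune lists each summed to at most 5.26 TPM in any library. The ranges of all lists overlapped between the groups, and their part in the values below was not tested. In such bulk RNA, fewer cells of a type and less RNA per cell cannot be told apart.

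A first look asked how firmly reads could be placed on a gene and on an isoform. Summed over the isoforms, the recovered reads of Plekhb1, Pabpc1, Dnajc27 and Rassf8 were whole numbers in all 10 libraries, within 0.01 reads. No fraction of a read was thus divided with another gene in the table. This includes Pabpc1, whose relative Pabpc2 was listed at 0 in every library. Reads that fit 2 genes but were all given to 1 of them would also leave whole sums, and this was not tested. The isoforms taken singly did not come out whole: the leading and the second isoform of Plekhb1, Pabpc1 and Dnajc27 were fractional in all 10 libraries, and those of Rassf8 were whole in 1 library. Over the 2875 genes with at least 2 tested isoforms, 71.8% had whole sums in every library, while 1.12% of their 6704 isoforms did. A gene sum of these 4 genes is thus a whole number of assigned reads, and an isoform value is an estimate.

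In each of the 4 genes, the isoform with the highest mean scaled count is called the leading isoform and the next one the second. Scaled counts are the estimated counts as Sleuth had rescaled them, and can be compared between libraries for 1 isoform. The leading isoform was higher per length (TPM) than the second in 10 of 10 libraries for each gene.

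Pabpc1 (ENSRNOG00000008639) was by far the most abundant of the 4. Its leading isoform, ENSRNOT00000012775 of 2190 bases, had scaled counts of 5603, 6489.89, 6357, 5592 and 5748 in siCtrl 1 to 5 and of 4607, 4778, 4660, 4093 and 4192 in siScrt1 A to E. Every siScrt1 library lay below every siCtrl library. The means were 5958 ± 432 and 4466 ± 304 (SD, 5 libraries each), which is 25.04% lower in siScrt1, with a fitted log2 fold change of -0.42 (SE 0.0684). The second isoform, ENSRNOT00000080218 of 2386 bases, had 1488, 1089.79, 984, 1290.06 and 1469.64 scaled counts in siCtrl and 1589, 1753, 1552, 887 and 672 in siScrt1. Here the groups overlapped, with the 3 highest and the 2 lowest values all in siScrt1. Its mean was 1264 ± 224 in siCtrl and 1290.48 ± 479 in siScrt1 (SD, 5 libraries each), and its log2 fold change was -0.05 with an SE of 0.256, more than 3 times that of the leading isoform. Without siScrt1 E the fitted value was 0.17, of the opposite sign.

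Between the group means, the gene sum of Pabpc1 followed the leading isoform. The sum was 7222 ± 262 scaled counts in siCtrl and 5756 ± 774 in siScrt1 (SD, 5 libraries each), a log2 change of -0.34 (SE 0.0882). Of the difference of -1466 between these means, the leading isoform contributed -1492 and the second isoform 26.2. The sums of siScrt1 D and E, 4979.72 and 4864, lay below the 6196 to 6530.26 of siScrt1 A to C. In siScrt1 D and E both isoforms were lower than in siScrt1 A to C. The leading isoform had 4093 and 4192 scaled counts there and the second 887 and 672.

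Rassf8 (ENSRNOG00000015986) has isoforms of very different length. The leading one, ENSRNOT00000083173 of 5157 bases, had scaled counts of 2463, 2639, 2559, 2534 and 2907 in siCtrl and 1874, 1893, 1963, 1826 and 1953 in siScrt1. The groups did not overlap, and the siScrt1 libraries lay within a narrow band. Means were 2620.41 ± 172 and 1902 ± 57.0 (SD, 5 libraries each), 27.4% lower in siScrt1, and the log2 fold change was -0.46 (SE 0.0555). The second isoform, ENSRNOT00000021623 of 1420 bases, had 401, 184, 200.5, 376 and 273 scaled counts in siCtrl and 323, 295, 291, 249.3 and 159 in siScrt1. Its groups overlapped, with siCtrl 1 and 4 above every siScrt1 library and siScrt1 E below every siCtrl library. The log2 fold change was -0.09 (SE 0.254), and 0.08 without siScrt1 E.

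Because the second isoform is short, it took few of the Rassf8 reads but a large share per length. It accounted for 30.2% ± 8.0 of the Rassf8 TPM in siCtrl and 35.6% ± 6.36 in siScrt1 (SD, 5 libraries each). The gene sum in scaled counts was 2907 ± 162 in siCtrl and 2165 ± 71.4 in siScrt1, a log2 change of -0.42 (SE 0.0562). Summed as log2(TPM + 1), where the short isoform weighs more, the log2 fold change was -0.34.

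Dnajc27 (ENSRNOG00000003988) is listed with 3 isoforms. Its leading isoform, ENSRNOT00000005317 of 4578 bases, had 478, 592, 546, 620.2 and 613 scaled counts in siCtrl and 299.8, 312, 352, 329 and 396 in siScrt1. No siScrt1 library reached the lowest siCtrl library. The means of 569.8 ± 58.95 and 338 ± 38.3 (SD, 5 libraries each) differed by 40.7%, the largest relative fall among the 4 leading isoforms, and the log2 fold change was -0.75 (SE 0.0980). The second isoform, ENSRNOT00000081141 of 3970 bases, had scaled counts of 49.0, 31.7, 84.7, 3.23 and 18.0 in siCtrl and of 96.5, 32.4, 58.8, 25.3 and 26.4 in siScrt1. Both groups ranged widely and overlapped. Its log2 fold change of 0.76 had an SE of 0.743 and rested on siCtrl 4, the lowest library: without it the value was 0.08.

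The third Dnajc27 isoform, ENSRNOT00000088033 of 1140 bases, was listed at 0 in 9 libraries and at 2.31 recovered reads in siCtrl 4, and was not tested. A count of 0 allows up to 3 reads, which for this isoform is 0.166 to 0.251 TPM depending on the library. A 0 therefore does not exclude a level below that at this depth. The Dnajc27 sum had 527, 624, 631, 626 and 631 scaled counts in siCtrl and 396, 344, 411, 354 and 423 in siScrt1, again without overlap. The sums of siCtrl 2 to 5 lay closer together than the values of either isoform, and that of siCtrl 1 lay below them. The log2 fold change of the sum was -0.66 (SE 0.0816).

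Plekhb1 (ENSRNOG00000018627) moved the other way. The leading isoform, ENSRNOT00000082697 of 1828 bases, had 172, 155, 107, 117 and 174 scaled counts in siCtrl and 393, 326, 293, 349.6 and 296 in siScrt1. The lowest siScrt1 library was well above the highest siCtrl library. The mean was 145 ± 31.4 in siCtrl and 332 ± 41.4 in siScrt1 (SD, 5 libraries each), 2.28-fold higher, and the log2 fold change was 1.21 (SE 0.154). The second isoform, ENSRNOT00000025245, is 1901 bases long, close in length to the first, and had 56.9, 19.3, 45.8, 62.7 and 35.6 scaled counts in siCtrl and 23.5, 28.2, 36.8, 8.81 and 67.7 in siScrt1. The highest and the lowest of these values were both in siScrt1. Its log2 fold change was -0.58 (SE 0.494), and ranged from -0.90 without siScrt1 E to -0.18 without siScrt1 D. The Plekhb1 sum rose less than the leading isoform, from 189 ± 30.2 to 365 ± 31.9 scaled counts (SD, 5 libraries each), a log2 change of 0.95 (SE 0.112).

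**Figure D1:**
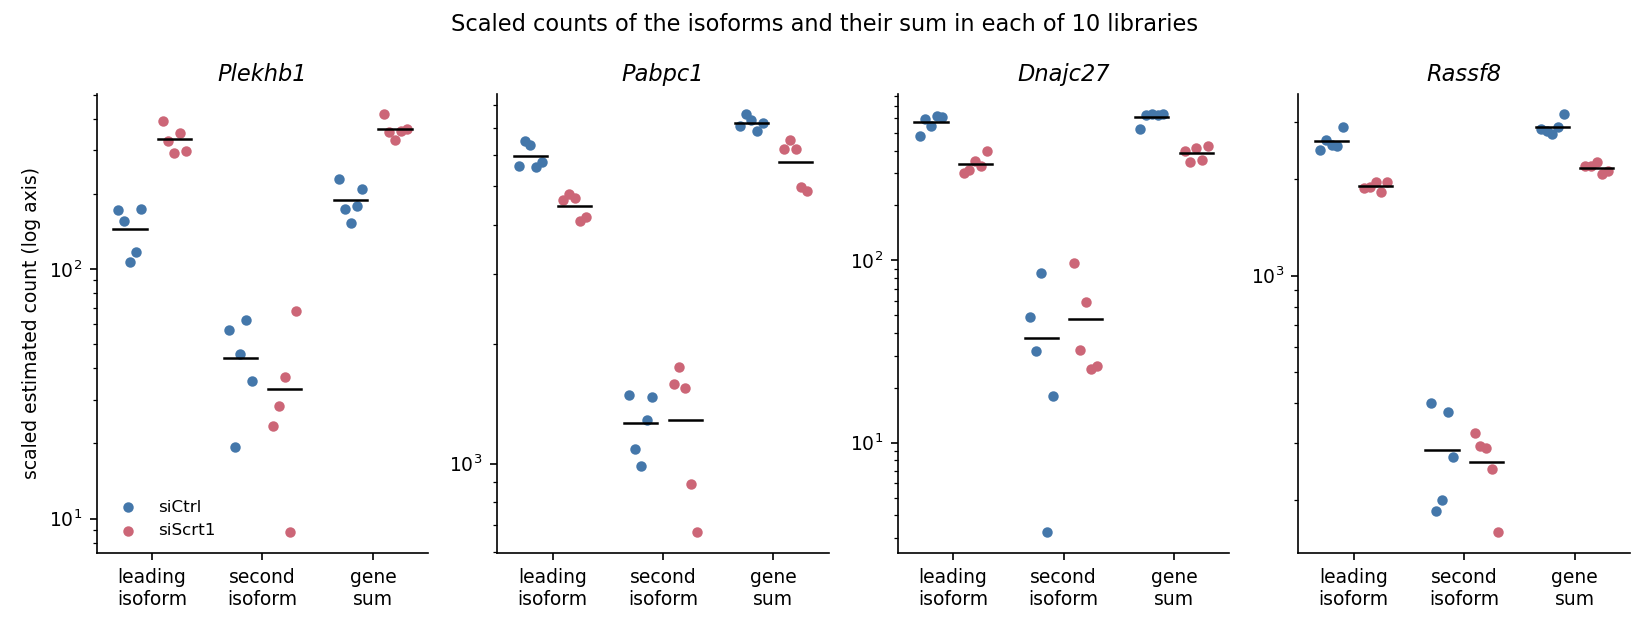
Scaled estimated counts (log axis, a separate range for each gene) of the leading isoform, the second isoform and the gene sum in 5 siCtrl (blue) and 5 siScrt1 (red) libraries, with black lines at the group means. Leading isoforms and gene sums are apart between the groups, for example 5592 to 6489.89 against 4093 to 4778 for the leading Pabpc1 isoform, while the second isoforms overlap in all 4 genes.

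Since the genes were chosen by this comparison, its calls describe the choice and carry no test of it. With limma on log2(scaled count + 0.5) and an adjusted p under 0.05 as the call, 4 of the 8 tested isoforms were called, the leading isoform of each gene, where 0.415% of 17578 transcripts were called in all. The groups did not overlap for the same 4 isoforms, against 2.53% of all tested transcripts. The sums of Plekhb1, Dnajc27 and Rassf8 were called and that of Pabpc1 was not, where 1.05% of 12941 genes were. The sums of all 4 genes had groups that did not overlap, as had 3.51% of genes. With the replicate number of the deposited table as a block, 4 of 4 sums were called, and the share over all genes was 2.00%. Measured as TPM, the Rassf8 sum was not called with either pseudocount. The leading Pabpc1 isoform was called in 2 of the 10 fits that left out 1 library, those without siCtrl 1 and without siScrt1 B, and the leading isoforms of the other genes in all 10.

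Whether the isoforms of a gene moved unequally is a separate question, which the log2 ratio of the leading to the second isoform within each library addresses. For Plekhb1 this ratio was 0.89 to 2.97 in siCtrl and 2.12 to 5.23 in siScrt1, and the mean difference of 1.79 had an SE of 0.642. Only siCtrl 2 and 5 reached into the siScrt1 range. For Pabpc1 the difference was -0.37 (SE 0.282), with ratios of 1.91 to 2.69 in siCtrl and 1.45 to 2.64 in siScrt1. Rassf8 likewise had a difference of -0.37 (SE 0.310), with 2.62 to 3.83 in siCtrl and 2.53 to 3.62 in siScrt1. For Dnajc27 it was -1.52 (SE 0.918), and -0.80 without siCtrl 4, whose ratio of 7.38 stood far above the 1.63 to 5.05 of the other libraries. The groups overlapped for all 4 genes, and in Pabpc1, Rassf8 and Dnajc27 the difference was below 2 of these unpaired SEs. Since the genes were chosen for isoforms that appeared to change differently, the differences and their SEs are a description without a test. Taken between libraries with the same number in the deposited table, the ratio of Dnajc27 was lower in siScrt1 in 5 of 5 pairs, by between -3.70 and -0.11. Its difference of -1.52 had a paired SE of 0.601. The ratio of Plekhb1 was higher in 4 of 5 pairs (paired SE 0.783). The ratios of Pabpc1 and Rassf8 were lower in 3 of 5 pairs each, with paired SEs of 0.347 and 0.281. Same-numbered libraries correlated above 0.1 over genes in every pair but over transcripts in 1 of 5 pairs, and the labels do not pair them.

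Of the 4 genes, 0 were called by limma's diffSplice, the F test of unequal change among the isoforms of a gene, in the fit without and in the fit with the replicate block. Over 2875 genes, 0.0348% were called without the block, so 0 of 4 is a count near the background. The genes were grouped as showing an isoform-dependent change, and in these data that describes which isoform was called. The difference between the isoforms was not resolved from the spread between libraries by this test, in these genes as in nearly all others tested. The only gene called was Hps5, named here after its values were seen, with log2 fold changes of 1.10, 0.45 and -0.52 for its 3 tested isoforms (limma diffSplice, adjusted p = 0.0076). With the replicate block 0 genes were called, and likewise 0 without siCtrl 2, without siScrt1 B or without siScrt1 C. As a description, the 2 leading isoforms differed in log2 fold change by at least as much as those of Plekhb1 in 6.50% of the 2875 genes, as those of Dnajc27 in 8.70%, as those of Pabpc1 in 38.2% and as those of Rassf8 in 38.4%. The median absolute difference was 0.26.

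**Figure D2:**
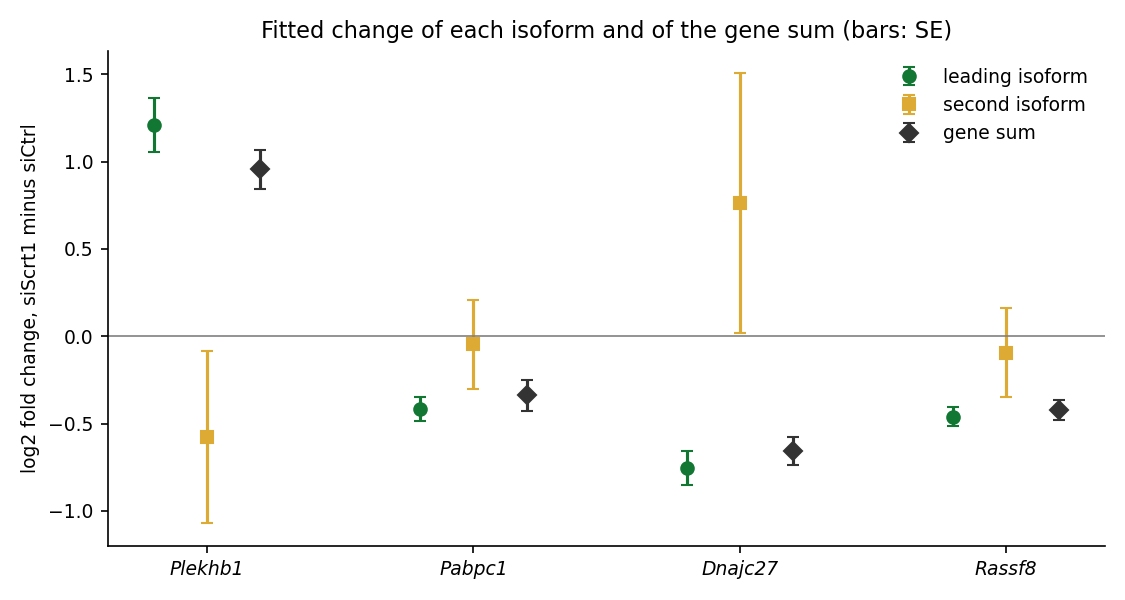
Fitted log2 fold change, siScrt1 minus siCtrl, of the leading isoform (green circles), the second isoform (yellow squares) and the gene sum (black diamonds) with its SE, from limma on log2(scaled count + 0.5). The second isoforms have the widest bars, such as an SE of 0.743 for Dnajc27 against 0.0980 for its leading isoform.

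The shares of the second isoforms, taken as percent of the gene's TPM, put the same values on a common scale. Plekhb1 had the largest difference, with 24.0, 10.7, 29.1, 33.9 and 16.4% in siCtrl and 5.41, 7.64, 10.7, 2.36 and 17.9% in siScrt1. Libraries siCtrl 1, 3 and 4 were above every siScrt1 library. The means were 22.8% ± 9.40 and 8.82% ± 5.95 (SD, 5 libraries each). For Dnajc27 the second isoform had 7.13% ± 5.86 in siCtrl and 13.9% ± 8.22 in siScrt1, the latter raised by siScrt1 A at 27.2%. For Pabpc1 it had 16.3% ± 3.26 and 20.3% ± 5.39, and siScrt1 A, B and C, at 23.3 to 25.04%, exceeded every siCtrl library while siScrt1 D and E, at 16.5 and 12.7%, did not. No share separated the groups, and shares of 1 gene mirror each other, since those of Plekhb1, Pabpc1 and Rassf8 are made of 2 isoforms only.

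Libraries also differed in how long and short transcripts were represented. The median deviation of 2983 transcripts under 1500 bases exceeded that of 2620 transcripts over 4000 bases by 0.20 on the log2 scale in siCtrl 3 and by 0.09 in siScrt1 B, and lay between -0.07 and -0.01 in the other libraries. In siCtrl 3 the share of the short Rassf8 isoform was 24.1%, the second lowest of its group, while that of the shorter second isoform of Dnajc27 was 15.3%, the highest of its group. The part of this difference between libraries in the isoform shares was not tested.

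**Figure D3:**
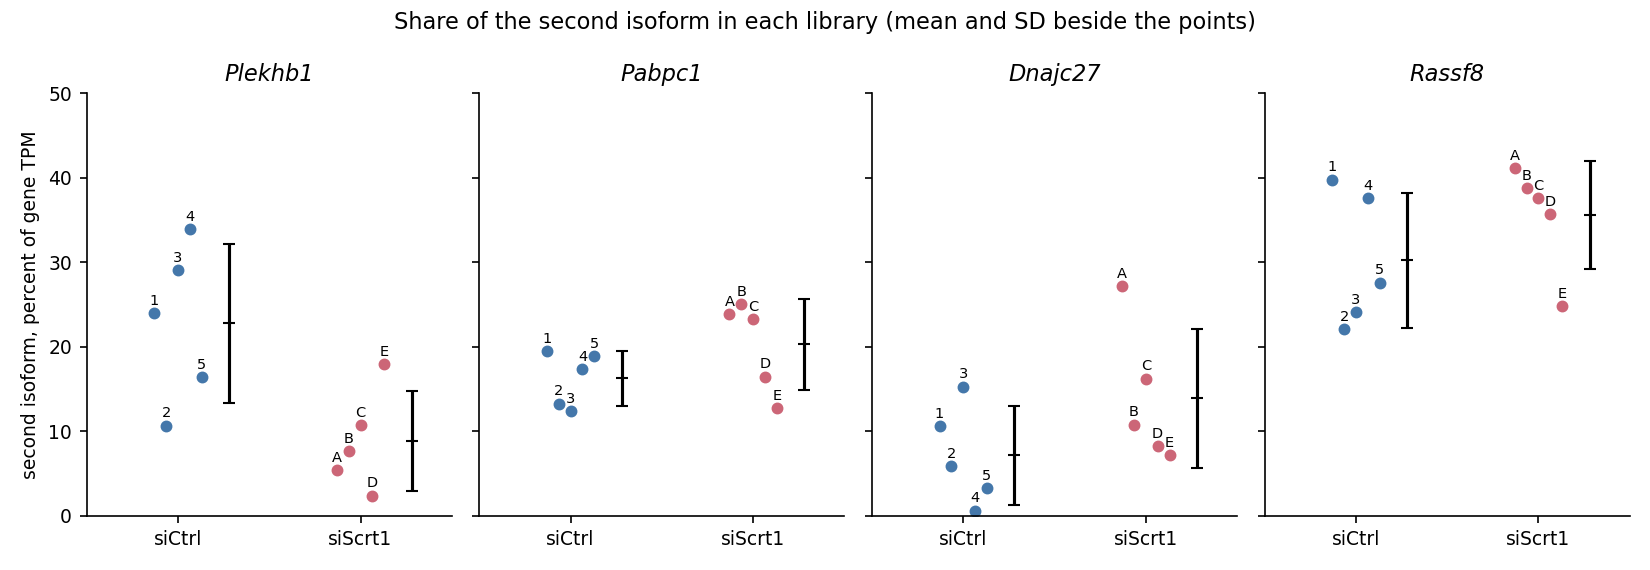
Share of the second isoform in the summed TPM of its gene, in percent, for each siCtrl (1 to 5, blue) and siScrt1 (A to E, red) library, with mean and SD beside the points. The groups overlap for each gene, and Plekhb1 shows the lowest siScrt1 shares, 2.36 to 17.9%.

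The spread between libraries of the same group was larger for the second than for the leading isoform of each gene. A call depends on this spread, so a choice of genes with 1 isoform called favours such a difference, and the values are a description. On the log2 scale the within-group SD was 0.0719 for the leading isoform of Rassf8, 0.101 for Pabpc1, 0.157 for Dnajc27 and 0.262 for Plekhb1, where the median over 17578 transcripts was 0.242. The leading Rassf8 isoform was among the least variable, at percentile 1.97 of all tested transcripts. Second isoforms had 0.461 for Rassf8, 0.47 for Pabpc1, 0.879 for Plekhb1 and 1.36 for Dnajc27, which places all 4 between percentiles 74.7 and 92.6. Over all genes with 2 or more tested isoforms the medians were 0.192 for the leading and 0.457 for the second isoform, so the second isoforms of Rassf8 and Pabpc1 were as variable as the typical one and those of Plekhb1 and Dnajc27 more so.

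Counting error alone was smaller. For 1273 reads per library on average, the second Pabpc1 isoform would have an SD of 0.0404, and for 38.9 and 41.3 reads the second isoforms of Plekhb1 and Dnajc27 would have 0.231 and 0.224. The observed SDs were several times larger. These figures cover counting error only and treat estimated reads as if they had been counted.

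Whether both isoforms of a gene deviated together from library to library was asked with correlations taken over the 10 libraries after removing the group means. Pearson's r was -0.57 for Dnajc27, with Spearman's rho of -0.67 (permutation p = 0.0787 and 0.0382, adjusted over 4 genes 0.315 and 0.153). For Plekhb1 r was -0.41 and rho -0.44 (permutation p = 0.242 and 0.206, adjusted 0.367 and 0.206). Rassf8 had an r of -0.33 and a rho of -0.45 (permutation p = 0.367 and 0.193, adjusted 0.367 and 0.206). Pabpc1 alone had positive values, an r of 0.34 and a rho of 0.47 (permutation p = 0.335 and 0.179, adjusted 0.367 and 0.206). No correlation passed the adjustment. The division of shared reads gives to 1 isoform what it takes from another, so an error in it moves their values in opposite directions. The part of such errors in these correlations was not tested. Without the 2 libraries farthest from the median of the leading isoform, r was -0.56 for Dnajc27, -0.38 for Plekhb1, -0.36 for Rassf8 and 0.36 for Pabpc1.

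In level per length, the leading Pabpc1 isoform had 186 ± 13 TPM in siCtrl, above 98.4% of tested transcripts. The second Pabpc1 isoform followed with 35.9 ± 6.46 TPM and did not differ from the leading Rassf8 isoform, at 32.8 ± 2.13 TPM, beyond their spread. The second Rassf8 isoform had 14.6 ± 5.06 TPM, and the leading isoforms of Dnajc27 and Plekhb1 had 8.07 ± 0.827 and 5.53 ± 1.21 TPM. At the lower end the second Plekhb1 isoform had 1.61 ± 0.633 TPM and the second Dnajc27 isoform 0.613 ± 0.514 TPM (SD, 5 libraries each). In siScrt1 the leading Plekhb1 isoform, at 12.7 ± 1.59 TPM, stood above the leading Dnajc27 isoform, at 4.80 ± 0.546 TPM, a reversed order without overlap.

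The transcripts whose deviations from the group means most resembled those of a leading isoform were of other kinds of gene. Among 12760 transcripts of other genes with a mean scaled count of at least 50, Plekhb1 was most like isoforms of Ing3, Prkd3 and Wdr4, with r between 0.93 and 0.94 over 10 libraries. Dnajc27 was most like those of Ptch1, LOC680039 and Clasp2, likewise between 0.93 and 0.94. Among 12759 transcripts, Pabpc1 was most like those of Pea15, Gabbr1 and Copz1, with r between 0.95 and 0.96, and Rassf8 was most like those of Heatr3, Sik2 and Gpr75, with r between 0.93 and 0.94. These are the highest of all the values compared, and are given as a description. The part of depth or preparation in them was not tested.

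The relatives and partners of the 4 genes, which the choice did not use, were tested at the gene level. Their lists were drawn up with earlier results of these data known. Of 147 such genes tested, 0 had a limma adjusted p under 0.05, also 0 with limma-voom, with the replicate block and in every other fit run. At the 1.05% of all genes called, 0 of 147 is a count near the background. An unadjusted p under 0.05 was found for 9 of them (6.12%), against 1435 of 12941 genes (11.1%) in all. Among 31 poly(A)-binding proteins and partners, 3 had an unadjusted p under 0.05 (9.68%, near the 11.1% of all genes), and the median log2 fold change was -0.02, where that of all 12941 genes was 0.00351. Pabpc4, a second cytoplasmic poly(A)-binding protein, had 1418 ± 81.95 scaled counts in siCtrl and 1234 ± 148 in siScrt1, a log2 change of -0.21 (limma, SE 0.0817 and adjusted p = 0.349). Gspt2, a translation termination factor that binds Pabpc1, had 0.24 (limma, SE 0.0907 and adjusted p = 0.307). The Pabpc1-binding translation regulators Paip1 and Paip2 had -0.03 and -0.08, and Eif4g1, the scaffold that Pabpc1 contacts at the cap, had 0.04, with limma adjusted p-values of 0.906, 0.754 and 0.903.

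Among 16 tested genes of the RASSF family and of the Hippo kinase pathway, the median log2 fold change was -0.05 and 1 had an unadjusted p under 0.05 (6.25%, against 11.1% of all genes). Rassf7, the closest relative of Rassf8 in the list, had 109 ± 16.1 and 105 ± 20.5 scaled counts, a log2 change of -0.06 (limma, adjusted p = 0.911). The kinase Lats2 had -0.25 (limma, adjusted p = 0.293) and the GTPase Hras 0.15 (limma, adjusted p = 0.521). The 25 tested J-domain proteins of class C, the class of Dnajc27, had a median of -0.02, and the smallest p-values were those of Dnajc24, with -0.30 (limma, adjusted p = 0.253), and Dnajc28, with -0.21 (limma, adjusted p = 0.468).

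Among 24 tested pleckstrin homology genes of the PLEKH families the median was 0.04. Plekhb2, the paralog of Plekhb1, had 3139.8 ± 225 scaled counts in siCtrl and 2865 ± 178 in siScrt1, a log2 change of -0.13 (limma, adjusted p = 0.501), and Plekhg3 had 0.31 (limma, adjusted p = 0.279). Regulators of splicing were included because they act on isoform choice. Of 51 tested, 3 had an unadjusted p under 0.05 (5.88%, against 11.1% of all genes), the median log2 fold change was -0.02 and the smallest p-values were those of Esrp2, an epithelial splicing regulator, with 0.22 (limma, SE 0.0672 and adjusted p = 0.187), and of Hnrnpc, with -0.52 (limma, SE 0.169 and adjusted p = 0.231).

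**Figure D4:**
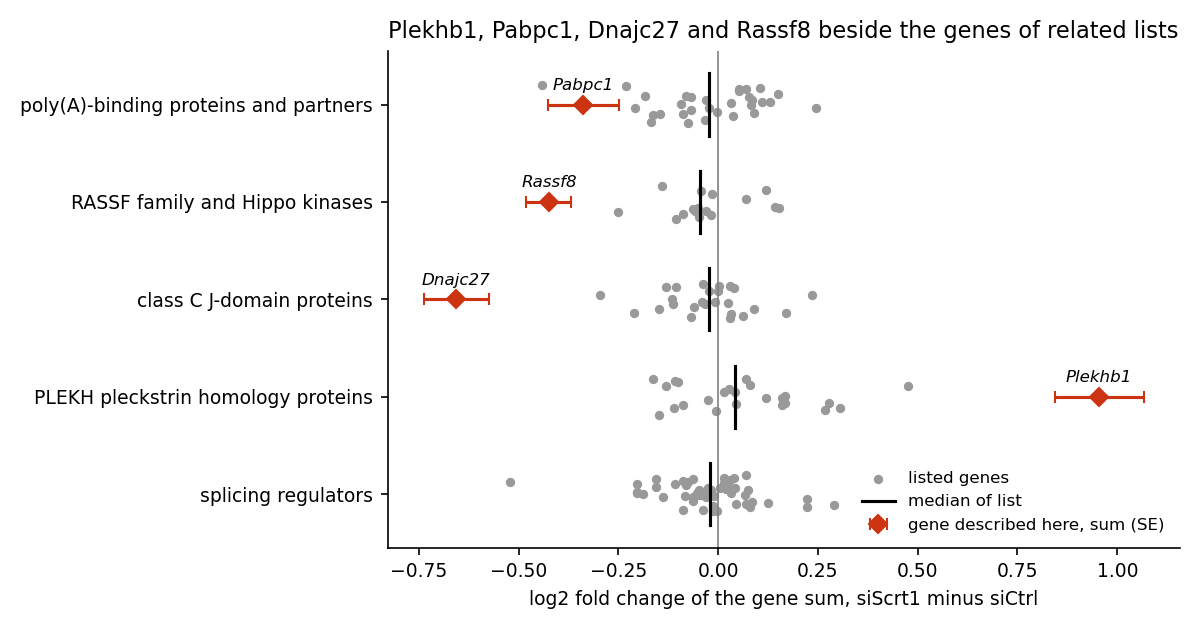
Log2 fold change of the gene sum, siScrt1 minus siCtrl, for the tested genes of 5 related lists (grey points, spread vertically for legibility, with the list median as a black line) and for Pabpc1, Rassf8, Dnajc27 and Plekhb1 (red diamonds with SE) beside the list of their relatives. The list medians lie between -0.05 and 0.04. Plekhb1 at 0.95, Dnajc27 at -0.66 and Rassf8 at -0.42 lie outside the range of their lists. Pabpc1 at -0.34 lies within the range of its list, where only Pabpn1l is lower, at -0.44 (SE 0.332). Genes shown in red were chosen by this comparison, so their position beside the lists describes that choice.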

How the data were processed

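Per the study's methods, the authors pseudoaligned single-end reads with kallisto, against Rnor6 rat transcripts, and compared groups with Sleuth, and the labels also name FastQC and Trimmomatic. Tool versions are not given in the sources used here. The deposited table holds, for each transcript and library, an estimated count as a signal value that the authors had rescaled between libraries with Sleuth, and a TPM score that they had rescaled likewise, so that TPM sums ran from 821278 to 1153952. Its lengths entered no test, and 9363 rows without values were left out. Low scaled counts were whole multiples of a step of 0.842 to 1.26, the worth of 1 read, and dividing by it gave whole library totals and the recovered reads. These were 50.3% whole among values above 0, within 0.01 reads. In the fits they were used for filters, for the median-ratio and upper-quartile scalings and for limma-voom only. The checks for whole reads and the counting errors used them as well.

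Transcripts that had 5 or more recovered reads in 5 or more libraries, and genes that reached the CPM of 10 reads at median depth in at least 5 libraries with at least 15 reads in total, were tested as log2(scaled count + 0.5) with limma 3.58.1 (lmFit, eBayes with trend, diffSplice) in R 4.3.3, the model holding the group alone. The added 0.5 lowers the size of fold changes of features with few reads, while 1 low library can raise it. For the second Dnajc27 isoform the fitted 0.76 fell to 0.08 without siCtrl 4. Adjusted p-values are Benjamini-Hochberg values over all features tested, with a threshold of 0.05, and the division of reads between isoforms was not modelled. Correlations used 100000 permutations, two-sided, in Python 3.11.15 with scipy 1.17.1, pandas 2.3.3 and numpy 2.4.6; plots were drawn with matplotlib 3.10.9. The fits were tested on simulated data. Groups came from the genotype label. The genes and the related lists were chosen with earlier results of these data known. Named relatives are those past the threshold or, in lists with none, the 2 with the smallest p, and Pabpc4, Pabpc2, Plekhb2, Rassf7, Paip1, Paip2 and Eif4g1. Likeness lists give the 3 transcripts with the highest r.

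The table numbers libraries 1 to 5 within each group, while the labels share no number between the groups. Deviations from the group means of same-numbered libraries correlated at 0.131 to 0.351 over genes and at -0.01 to 0.17 over transcripts, and the number was used as a block in an alternative fit.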

Additional observations from a re-analysis of the deposited data

Results flagged for a closer look

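One value stood apart from the rest of its group by Dixon's criterion, the Dnajc27 sum of siCtrl 1, with 527 scaled counts where the other siCtrl libraries had 624 to 631. Chance flags about 1 in 20 groups, and 40 groups were examined (scaled counts and shares of the tested isoforms and scaled counts of the gene sums, in siCtrl and siScrt1), where 2 would be flagged by chance. Without siCtrl 1 the log2 fold change of the Dnajc27 sum was -0.71, against -0.66 with it.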

How the results depend on the processing

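With the replicate block, 29 transcripts, 259 genes and 0 genes with unequal isoform change were called, against 73, 136 and 1 without it, and among the 4 genes described the block changed 1 call, that of the Pabpc1 sum, and no other. The number of genes with unequal isoform change was 4 with log2(TPM + 1), 4 with every feature that had any read and 4 with limma-voom. Leaving out 1 library gave 16 to 67 transcripts, 62 to 133 genes and 0 to 7 genes with unequal isoform change. The lowest transcript counts came without siCtrl 5 or siScrt1 E, and the lowest gene count without siScrt1 D. The cause of these differences was not tested, though each such fit had fewer samples. The difference between the leading and second isoform kept its sign in every alternative for the 4 genes: 1.35 to 2.15 for Plekhb1, -0.56 to -0.26 for Pabpc1, -1.98 to -0.80 for Dnajc27 and -0.55 to -0.22 for Rassf8. For Dnajc27 it was -0.81 with log2(TPM + 1), where a larger pseudocount weighs on the low second isoform. Other scalings moved the median of all transcripts by less than 0.005 on the log2 scale. The second isoforms of Plekhb1 and Dnajc27 had few reads, with 9.81 to 71.4 and 3.47 to 91.96 recovered reads per library. The part of depth in their spread was not tested.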
